A study of Mus musculus with 81 samples.

Results

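TCRBV16-01 and TCRBV26-01 are the mouse TCRβ variable (V) segments that encode the Vβ11 and Vβ3 families of T-cell receptors. They were followed here in all 81 TCRβ libraries of the series, which came from 27 mice. Their members were the rearrangements whose resolved V segment was TCRBV16 or TCRBV26 in any library, a rule that uses the segment name and no measured value. The 2 segments were chosen with earlier results of these data known. TCRBV16-01 had 30782 rearrangement rows, of which 20725 were in frame, 9885 out of frame and 172 held a stop codon. TCRBV26-01 had 18001 rows, of which 12377 were in frame, 5524 out of frame and 100 held a stop codon. Together these were 48783 of the 581514 rows of the series, and 2 of its 35 resolved V segments. A rearrangement is 1 nucleotide sequence read across the joined V, D and J segments, and its count is the number of template molecules of genomic DNA estimated for it. Each T cell keeps its rearrangement in DNA for life, so a template stands for a cell that carries it, whatever its activity. CD4 and CD8 T cells cannot be told apart in these libraries.

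Vβ3 and Vβ11 are textbook examples of V families that a superantigen can remove or stimulate as a whole. A superantigen, such as the product of an endogenous mouse mammary tumor virus or a bacterial enterotoxin, binds the V segment outside the antigen-contact loop and so reaches most T cells of a family, whatever their CDR3. Vβ11 cells are deleted in the thymus of strains that carry certain endogenous viruses together with the class II molecule I-E, and Vβ3 cells are deleted by others. C57BL/6 mice make no I-E, and both families are normally present in them.

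The data came from 2 experiments in female Pep Boy mice (B6.SJL-Ptprc<a> Pepc<b>/BoyJ, a CD45.1 congenic C57BL/6 strain). In the first, mice were injected with 2e6 cells of EG7.OVA (EL4 lymphoma cells that make OVA) and received 1e6 OT-1 cells, which are transgenic T cells against OVA. Red blood cells followed on days 0 and 3, either 1E9 of mRBC-CTRL, without the 3 signals, or a dose of 1E9 or 2.5E8 of mRBC-OVA-4-1BBL-IL-12. Blood was taken on day 0, 5 min after the OT-1 transfer, and blood and the whole tumor on day 7, which gave 43 libraries from 15 mice (5 per arm), with no day 7 blood of mRBC-CTRL mouse 1 and no day 0 blood of mouse 1 at 1E9 analysed here. In the second, 7 mice cured of EG7.OVA, after mRBC-OVA-4-1BBL-IL-12 at 2.5E8 and OT-1 cells, were bled 1 day before (day 65) and 7 days after (day 73) an EG7.OVA rechallenge, and again before (day 126) and after (day 136) a challenge with EL4, while 5 treatment-naive mice that received 5e5 OT-1 cells on day 65 were bled on days 65 and 73, for 38 blood libraries. No age is given in the labels, and all mice, mRBC-CTRL and naive mice included, received OT-1 cells.

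Every share below is the percent of in-frame templates after 2 CDR3s were taken out. The first was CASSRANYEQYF, the CDR3 of OT-1, which uses the Vβ5 segment TCRBV12-01. The second was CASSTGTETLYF, which uses the Vβ12 segment TCRBV15-01 and took 0.737% to 79.4% of in-frame templates in the 15 tumors and at most 0.0372% in blood. OT-1 took 5.21% to 85.8% in tumors and 0% to 79.5% in blood. What remained was 482 to 23605 templates per library, so that the limit set by a count of 0, 3 templates, was 0.0127% to 0.622%. The shallowest library was the day 7 blood of mouse 5 at 1E9, with 482 templates. No pair of libraries of different mice shared more than 3.42% of the rearrangements of the smaller library, and no pair of the same mouse more than 16.4%.

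The sequences of the segments themselves are shown first, because most untrimmed members of a segment have them in common. These are the 30 bases before the CDR3 in lower case and the bases that the untrimmed segment contributes to the CDR3 in capitals, starting at the conserved cysteine codon, as read 5′ to 3′ in the rearrangements without V deletion.

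TCRBV16-01: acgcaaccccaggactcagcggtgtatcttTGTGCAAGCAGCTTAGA

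TCRBV26-01: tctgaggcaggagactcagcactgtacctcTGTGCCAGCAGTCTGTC

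The TCRBV16-01 form made up 5378 of 5644 untrimmed rows (95.3%) and the TCRBV26-01 form 1848 of 1908 (96.9%). The segments shared 17 of the 30 bases before the CDR3, and each gave 17 bases to it. In the mouse reference annotation (RefSeq, GRCm38.p6) the genes are Trbv16 and Trbv26 of the T-cell receptor beta locus on chromosome 6, each with 1 entry of the V segment type. The build behind the deposited segment names is not given in the sources used here, so no positions are set against them.

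The clones on which the tumor results turn were large TCRBV16-01 rearrangements in 3 tumors. They are printed as 87-base reads, with the CDR3 from its cysteine codon to the end of the read in capitals, which leaves out the last codon.

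mRBC-CTRL mouse 2, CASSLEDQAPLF: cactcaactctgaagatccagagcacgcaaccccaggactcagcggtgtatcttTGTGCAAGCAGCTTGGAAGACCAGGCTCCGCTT

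mRBC-CTRL mouse 3, CDR3 of 15 amino acids: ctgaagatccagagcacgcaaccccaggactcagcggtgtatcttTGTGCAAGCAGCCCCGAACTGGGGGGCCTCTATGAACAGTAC

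2.5E8 mouse 2, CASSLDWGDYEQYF: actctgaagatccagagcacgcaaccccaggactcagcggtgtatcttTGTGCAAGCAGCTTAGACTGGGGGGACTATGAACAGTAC

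Both segments were present in every library. In the 66 blood libraries TCRBV16-01 held 3.11% to 7.32% of templates with a median of 5.34%, and TCRBV26-01 held 1.66% to 4.24% with a median of 3.25%. By mean blood share they ranked 10 and 16 of the 35 V segments. TCRBV16-01 was above TCRBV26-01 in 66 of 66 blood libraries, by 1.06-fold to 2.45-fold (median 1.64). In tumors the spread was wider. TCRBV16-01 ran from 0.695% to 33.8% (median 2.59%) and TCRBV26-01 from 0.935% to 3.71% (median 1.61%) over the 15 tumors. 10 tumors were below every blood library and 3 were above every blood library for TCRBV16-01, and 8 were below every blood library and 0 above for TCRBV26-01. TCRBV16-01 exceeded TCRBV26-01 in 10 of 15 tumors.

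**Figure D1:**
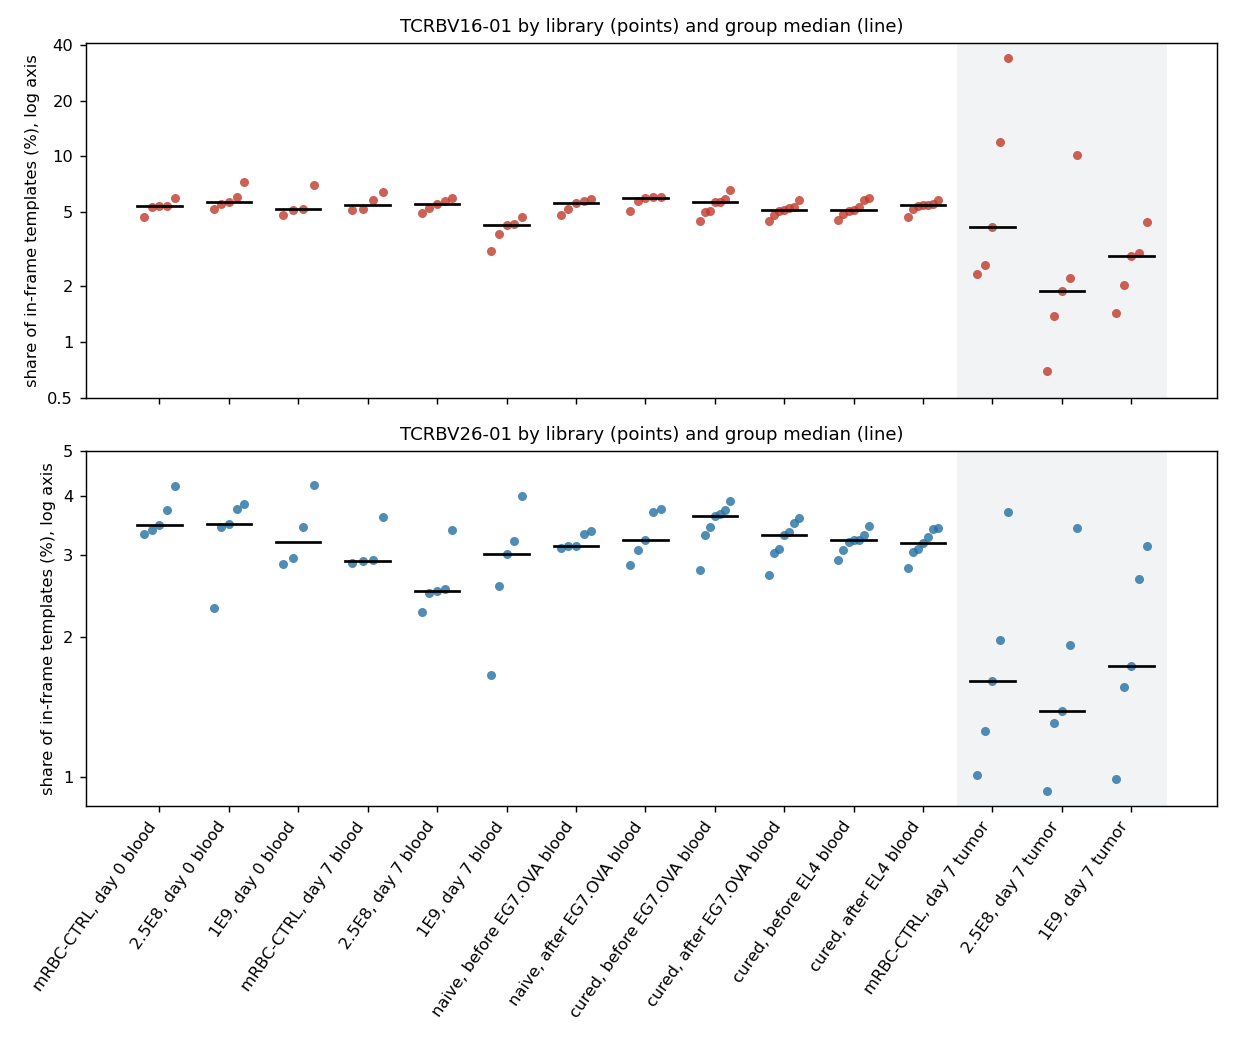
Share of in-frame templates (percent, log axis) of TCRBV16-01 (top) and TCRBV26-01 (bottom) in each of the 81 libraries, without OT-1 and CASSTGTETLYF. Points are libraries (1 mouse each) and black lines group medians; the shaded tumors spread far more than blood, and the 1E9 day 7 blood has the lowest median of the blood groups for TCRBV16-01.

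Day 0 blood gave the level before dosing. TCRBV16-01 held 6.01%, 5.33%, 4.73%, 5.41% and 5.38% in mRBC-CTRL mice 1 to 5. It held 6.05%, 5.57%, 7.32%, 5.67% and 5.22% in mice 1 to 5 at 2.5E8. It held 5.24%, 7.00%, 5.17% and 4.85% in mice 2 to 5 at 1E9. The arms overlapped. TCRBV26-01 was 3.63% ± 0.355 (SD, n = 5) for mRBC-CTRL, 3.37% ± 0.616 (n = 5) at 2.5E8 and 3.37% ± 0.629 (n = 4) at 1E9, also overlapping. By edgeR's quasi-likelihood test on template counts, 0 of 23 V segments (0%) differed from mRBC-CTRL at adjusted p under 0.05 for either dose, with 2 at 1E9 and 1 at 2.5E8 at an unadjusted p under 0.05 and 0 by DESeq2.

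On day 7, TCRBV16-01 in blood was lower in mice given 1E9 mRBC-OVA-4-1BBL-IL-12 than in mice given mRBC-CTRL. It held 4.73%, 4.26%, 3.82%, 4.32% and 3.11% in mice 1 to 5 at 1E9. It held 6.40%, 5.21%, 5.16% and 5.80% in mRBC-CTRL mice 2 to 5, and 5.73%, 5.98%, 5.52%, 5.27% and 4.95% in mice 1 to 5 at 2.5E8. Every mouse at 1E9 was below every mouse of the other arms, and how many other V segments separated in this way is not given here. The log2 fold change against mRBC-CTRL was -0.44 ± 0.12 (SE), a fold of 0.735, with an adjusted p of 0.0325 by edgeR. In this comparison 2 of 23 V segments (8.7%) were called, TCRBV16-01 and TCRBV31-01, the latter named after its values were seen, both lower at 1E9. The exact permutation test of the difference in mean share, -1.59 percentage points, gave p = 0.00794, the smallest that 5 against 4 mice can give, and 0.183 after adjustment over the segments. The call was lost when any of 6 of the 9 mice was left out (adjusted p 0.00964 to 0.119) and with TMM normalization (log2 fold change -0.33, adjusted p = 0.134). The same 1E9 libraries held 48.1% to 79.5% OT-1 and 482 to 6579 other templates, against 2.17% to 7.58% and 5002 to 10699 for mRBC-CTRL, and the part of this difference in the result was not tested.

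By the number of different rearrangements the arms were closer. TCRBV16-01 made up 4.86% ± 0.835 of in-frame rearrangements, each counted once, at 1E9 (n = 5) and 5.72% ± 0.556 for mRBC-CTRL (n = 4), and the groups overlapped, at 3.51% to 5.65% and 5.19% to 6.33%. With rearrangements in place of templates the log2 fold change was -0.11 (adjusted p = 0.567 by edgeR). Without the largest rearrangement of each V segment in each library it was -0.18 (adjusted p = 0.348).

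Within the 1E9 mice the same fall was seen from day 0. TCRBV16-01 was lower on day 7 in 4 of 4 mice, from 5.24% to 4.26%, from 7.00% to 3.82%, from 5.17% to 4.32% and from 4.85% to 3.11% in mice 2 to 5. The log2 fold change with the mouse as a block was -0.51 ± 0.13 (adjusted p = 0.00729 by edgeR), and without mouse 3 it was -0.35 (adjusted p = 0.102). In these mice 8 of 23 V segments (34.8%) were called, 5 lower and 3 higher, so TCRBV16-01 was among many that moved. The exact sign-flip test cannot go below 0.125 with 4 mice, and gave 0.125. In rearrangements in place of templates the fold change was -0.23 (adjusted p = 0.153).

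TCRBV16-01 did not pass the test over the same week in the other arms. It was higher on day 7 in 3 of 4 mRBC-CTRL mice, by 0.43 percentage points on average over the 4 (log2 fold change 0.11 ± 0.12, adjusted p = 0.937) and was lower in 4 of 5 mice at 2.5E8 (log2 fold change -0.11 ± 0.11, adjusted p = 0.425). The test of the difference in change between 1E9 and mRBC-CTRL gave a log2 difference of -0.61 ± 0.17 (adjusted p = 0.0651 by edgeR), which missed the threshold but passed without mouse 4 at 1E9 (-0.73, adjusted p = 0.0217), and at 2.5E8 -0.22 ± 0.16 (adjusted p = 0.513). The exact permutation test of the changes at 1E9 against mRBC-CTRL gave p = 0.0286, the smallest that 4 against 4 mice can give, and 0.329 after adjustment. For these differences in change 0 of 23 segments (0%) were called by edgeR at either dose, with 4 at 1E9 and 0 at 2.5E8 at an unadjusted p under 0.05, and 0 by DESeq2.

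TCRBV26-01 in day 7 blood held 2.88%, 2.90%, 2.92% and 3.62% in mRBC-CTRL mice 2 to 5. It held 2.51%, 3.39%, 2.54%, 2.48% and 2.26% in mice 1 to 5 at 2.5E8, and 3.21%, 4.01%, 2.57%, 3.01% and 1.66% in mice 1 to 5 at 1E9. The value of 1.66% came from 8 templates in the shallowest library. All arms overlapped, and the log2 fold change against mRBC-CTRL was -0.04 ± 0.18 at 1E9 (adjusted p = 0.952) and -0.21 ± 0.17 at 2.5E8 (adjusted p = 0.497). From day 0 to day 7 it was lower in 4 of 4 mRBC-CTRL mice, 4 of 5 at 2.5E8 and 3 of 4 at 1E9, with log2 fold changes of -0.27 ± 0.16, -0.35 ± 0.15 and -0.22 ± 0.18 and adjusted p of 0.937, 0.115 and 0.526. The difference in change between 1E9 and mRBC-CTRL was 0.05 ± 0.25 (adjusted p = 0.929). At 2.5E8, 0 of 23 segments (0%) were called against mRBC-CTRL on day 7 and 0 of 23 (0%) from day 0 to day 7, with 2 and 7 at an unadjusted p under 0.05 and 0 and 1 by DESeq2. In mRBC-CTRL mice 0 of 23 (0%) were called over the week, with 1 at an unadjusted p under 0.05 and 0 by DESeq2.

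In 3 tumors a single rearrangement made up most of the TCRBV16-01 share. It held 2.59%, 33.8%, 11.9%, 4.19% and 2.33% in mRBC-CTRL tumors 1 to 5. It held 2.22%, 10.2%, 1.88%, 0.695% and 1.38% in tumors 1 to 5 at 2.5E8, and 2.93%, 3.00%, 1.44%, 4.41% and 2.04% in tumors 1 to 5 at 1E9. The arms overlapped, and the highest values were mRBC-CTRL mice 2 and 3 and 2.5E8 mouse 2.

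The clone of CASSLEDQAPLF, joined to TCRBJ01-05 and printed above, had 3659 templates in the tumor of mRBC-CTRL mouse 2, or 31.9% of that library (95% Wilson interval 31.0% to 32.7%) and 94.4% of its TCRBV16-01 templates. It had 26 templates (0.442%) in the day 7 blood of this mouse and 0 of 4953 in its day 0 blood, which allows a share of up to 0.0606%. The clone with a CDR3 of 15 amino acids, joined to TCRBJ02-07, had 2429 templates in the tumor of mRBC-CTRL mouse 3 (10.3%, interval 9.91% to 10.7%), 29 in its day 7 blood (0.465%) and 0 of 2621 in its day 0 blood, which allows up to 0.114%. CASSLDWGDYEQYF, also joined to TCRBJ02-07, had 795 templates in the tumor of 2.5E8 mouse 2 (8.87%, interval 8.30% to 9.48%), 52 in its day 7 blood (1.06%, interval 0.810% to 1.39%) and 0 of 18519 in its day 0 blood, which allows up to 0.0162%. This was also the highest share of any TCRBV16-01 rearrangement in blood. Each of the 3 was found in 1 mouse and in 2 libraries, its tumor and its day 7 blood. They differed in J use or junction, with 2, 8 and 1 inserted bases, so the large clones shared the V segment and not the CDR3. These intervals and limits cover counting error only.

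Without its largest rearrangement, TCRBV16-01 lay between 0.465% and 3.49% in all 15 tumors, with means of 2.45% ± 0.695 for mRBC-CTRL, 1.41% ± 0.592 at 2.5E8 and 2.16% ± 0.703 at 1E9 (n = 5 each). The largest rearrangement held more than 50% of TCRBV16-01 templates in 3 tumors and in 0 of 66 blood libraries. Its share of the segment had a median of 17.2% in tumors and 1.42% in blood.

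**Figure D2:**
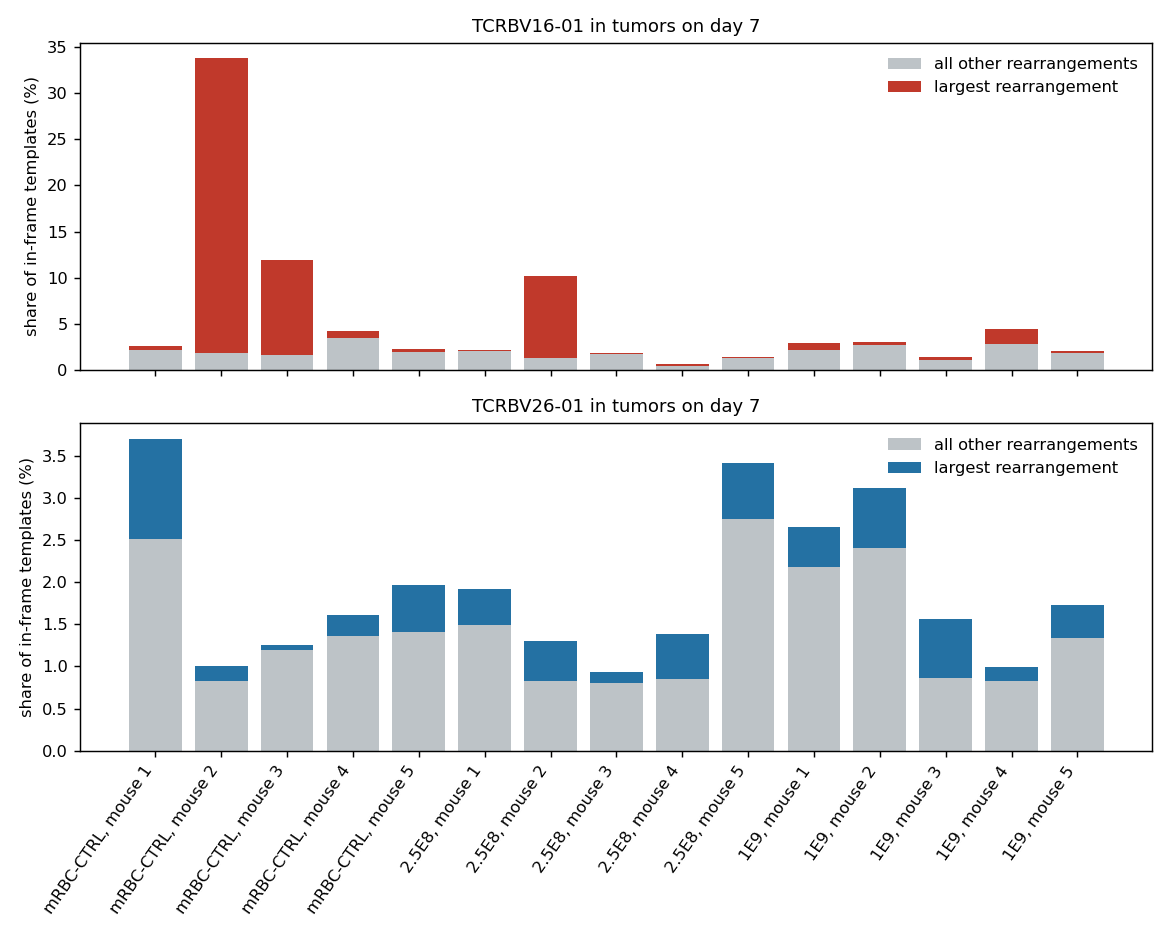
Share of in-frame templates (percent) of TCRBV16-01 (top) and TCRBV26-01 (bottom) in each of the 15 tumors, without OT-1 and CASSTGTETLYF, split into the largest rearrangement (colored) and all others (gray). The 3 highest TCRBV16-01 bars, 33.8%, 11.9% and 10.2%, are mostly 1 rearrangement each.

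Between arms, TCRBV16-01 in tumors was lower than mRBC-CTRL by a log2 fold change of -1.99 ± 0.79 at 1E9 (adjusted p = 0.196 by edgeR) and -1.74 ± 0.78 at 2.5E8 (adjusted p = 0.176), neither past the threshold. The tumor of mRBC-CTRL mouse 2 decided much of these values, which were -0.93 at 1E9 and -0.68 at 2.5E8 without it (adjusted p = 0.536 and 0.668). Without 2.5E8 mouse 2 the value at 2.5E8 passed (-2.82, adjusted p = 0.0276). DESeq2 called the difference at 1E9 (log2 fold change -2.60, adjusted p = 0.0216). The difference of 1E9 from 2.5E8 was -0.25 ± 0.77 (adjusted p = 0.817), and turned to 0.83 without 2.5E8 mouse 2 (adjusted p = 0.586). In tumors edgeR called 0 of 23 segments (0%) at 1E9 against mRBC-CTRL, 1 of 23 (4.35%) at 2.5E8 against mRBC-CTRL and 0 of 23 (0%) between the doses, with 4, 5 and 4 at an unadjusted p under 0.05 and 5, 5 and 3 by DESeq2.

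TCRBV26-01 had no clone of that size. It held 3.71%, 1.01%, 1.26%, 1.61% and 1.97% in mRBC-CTRL tumors 1 to 5. It held 1.92%, 1.31%, 0.935%, 1.39% and 3.42% in tumors 1 to 5 at 2.5E8, and 2.66%, 3.12%, 1.56%, 0.990% and 1.73% in tumors 1 to 5 at 1E9. The arms overlapped almost entirely, with log2 fold changes against mRBC-CTRL of 0.06 ± 0.56 at 1E9 (adjusted p = 1.00) and -0.09 ± 0.56 at 2.5E8 (adjusted p = 0.932), and of 0.15 ± 0.56 between the doses (adjusted p = 0.825). None kept its sign when each mouse was left out, with ranges of -0.14 to 0.45, -0.46 to 0.30 and -0.05 to 0.52. Its largest rearrangement in any tumor was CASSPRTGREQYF in mRBC-CTRL mouse 1, joined to TCRBJ02-07, with 198 templates (1.19%, interval 1.04% to 1.37%). It was in no other library, and the day 0 blood of this mouse held 0 of 3695, which allows up to 0.0812%. In blood the largest was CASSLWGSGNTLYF in the day 7 blood of mouse 2 at 1E9, with 7 templates (0.439%, interval 0.213% to 0.903%), and it had 0 of 832 templates in the tumor of this mouse, which allows up to 0.361%.

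mRBC-CTRL mouse 1 tumor, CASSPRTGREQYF: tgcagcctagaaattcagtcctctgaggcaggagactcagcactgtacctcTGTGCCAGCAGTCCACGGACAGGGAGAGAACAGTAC

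A single TCRBV26-01 CDR3 was the largest of its segment in tumors of 2 mice, from 2 different rearrangements. This pair was chosen after its values were seen. Both joined TCRBJ01-04 and encoded the same CDR3 of 16 amino acids, with 3 different bases between them, and they are shown because the difference lies in the junction.

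mRBC-CTRL mouse 5: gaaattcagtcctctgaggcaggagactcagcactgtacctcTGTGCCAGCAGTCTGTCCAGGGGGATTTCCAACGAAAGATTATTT

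2.5E8 mouse 4: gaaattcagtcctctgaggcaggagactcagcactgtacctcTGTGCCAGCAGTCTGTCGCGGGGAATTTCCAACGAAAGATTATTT

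The first had 67 templates in the tumor (0.567%) and 2 in the day 7 blood of mRBC-CTRL mouse 5 (0.0400%). The second had 14 templates in the tumor (0.541%) and 5 in the day 7 blood of mouse 4 at 2.5E8 (0.170%). Neither nucleotide sequence was found in any other mouse.

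Tumors were then set against day 7 blood of the same mice. TCRBV16-01 was lower in the tumor in 10 of 14 mice with both samples and TCRBV26-01 in 12 of 14. At 2.5E8, TCRBV16-01 was lower in 4 of 5 mice, with mouse 2 the exception, and the log2 fold change was -1.39 ± 0.49 (adjusted p = 0.0291 by edgeR), where 9 of 23 segments (39.1%) were called. The call was lost without mouse 3, 4 or 5 (adjusted p 0.0115 to 0.123 over all 5), without the mouse as a block (-0.74, adjusted p = 0.354), with TMM normalization (-0.73, adjusted p = 0.438) and by DESeq2 (-0.70, adjusted p = 0.344). The exact sign-flip test gave p = 0.313, with 0.0625 the smallest it can give. At 1E9 the log2 fold change of TCRBV16-01 was -0.63 ± 0.47 (lower in 4 of 5 mice, adjusted p = 0.357), and in mRBC-CTRL mice 0.49 ± 0.55 (lower in 2 of 4, adjusted p = 0.488). The latter turned to -0.15 without mRBC-CTRL mouse 2 (adjusted p = 0.905) and was 0.19 without mouse 3, 0.82 without mouse 4 and 1.10 without mouse 5.

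TCRBV26-01 was lower in the tumor in 4 of 4 mRBC-CTRL mice, 4 of 5 at 2.5E8 and 4 of 5 at 1E9. The log2 fold changes were -1.11 ± 0.42, -0.69 ± 0.39 and -0.60 ± 0.40, with adjusted p of 0.0946, 0.187 and 0.298. None passed. In mRBC-CTRL mice and at 1E9 edgeR called 0 of 23 segments (0%) between tumor and blood, with 4 and 1 at an unadjusted p under 0.05 and 2 and 0 by DESeq2. The median log2 fold change over all segments was -0.66 for mRBC-CTRL, -0.69 at 2.5E8 and -0.51 at 1E9, against which the values of TCRBV16-01 and TCRBV26-01 are to be read.

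Counted as rearrangements, the ranges over all tumors and all blood libraries overlapped. TCRBV16-01 made up 2.79% to 5.92% of in-frame rearrangements in tumors (median 5.47%) and 3.51% to 7.17% in blood (median 5.52%). TCRBV26-01 made up 2.12% to 4.21% in tumors (median 2.79%) and 2.25% to 4.16% in blood (median 3.26%). Against day 7 blood of the same mice, TCRBV16-01 was lower in tumors at 2.5E8 also by rearrangements (mean 4.48% ± 1.29 against 5.93% ± 0.546, n = 5 each, log2 fold change -0.34, adjusted p = 0.00379 by edgeR), where 12 of 22 segments (54.5%) were called. TCRBV26-01 made up 2.51% to 2.80% of rearrangements in the 5 mRBC-CTRL tumors and 2.85% to 3.43% in the 4 day 7 blood libraries. How many other V segments separated in this way is not given here. The log2 fold change of TCRBV26-01 within these mice did not pass (-0.19, adjusted p = 0.0900 by edgeR), where 8 of 22 segments (36.4%) were called. The other values did not pass, with 5 of 22 segments (22.7%) called at 1E9. Their means went both ways. At 1E9 TCRBV16-01 had a mean of 5.41% in tumors and 4.86% in day 7 blood, and TCRBV26-01 of 3.30% and 3.09%. At 2.5E8 TCRBV26-01 had a mean of 3.06% in tumors and 2.68% in day 7 blood. For mRBC-CTRL TCRBV16-01 had a mean of 5.33% in 5 tumors and 5.72% in 4 day 7 blood libraries. The mean number of templates per rearrangement had a median of 2.07 for TCRBV16-01, 2.70 for TCRBV26-01 and 4.65 for the other V segments in tumors, and of 1.34, 1.35 and 1.36 in blood. The other V segments were pooled, so these values do not place either segment among single V segments. For TCRBV16-01 the mean ran from 1.14 to 29.8 over the tumors. Of 1457 TCRBV16-01 rearrangements in tumors, 90 were also in blood of the same mouse, or 6.18% of the tumor list and 1.496% of the blood list. For TCRBV26-01 it was 62 of 808 (7.67% and 1.76%), and for the other V segments 6.11% and 1.65%.

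Around the rechallenge neither segment passed the test. In naive mice 1 to 5 TCRBV16-01 was 5.58%, 4.81%, 5.18%, 5.77% and 5.88% before and 5.75%, 6.04%, 6.08%, 5.94% and 5.09% after EG7.OVA. In the 7 cured mice it was 4.49% to 6.56% (median 5.66%) before and 4.47% to 5.85% (median 5.15%) after EG7.OVA, 4.52% to 5.96% (median 5.12%) before EL4 and 4.73% to 5.81% (median 5.44%) after EL4. The ranges of all 6 samplings overlapped. TCRBV26-01 was 3.21% ± 0.128 before and 3.32% ± 0.394 after EG7.OVA in naive mice (n = 5). In cured mice it was 3.50% ± 0.371, 3.23% ± 0.306, 3.20% ± 0.169 and 3.17% ± 0.217 at the successive samplings (n = 7).

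Within cured mice the log2 fold changes of TCRBV16-01 were -0.09 ± 0.06 around EG7.OVA, 0.03 ± 0.06 between the challenges and 0.04 ± 0.06 around EL4, with adjusted p of 0.389, 0.780 and 0.997. Those of TCRBV26-01 were -0.10 ± 0.07, -0.02 ± 0.07 and -0.02 ± 0.06, with adjusted p of 0.389, 0.807 and 0.997. In naive mice they were 0.07 ± 0.07 and 0.04 ± 0.09, with adjusted p of 0.667 and 0.853. After EG7.OVA, TCRBV16-01 was lower in cured than in naive mice by a log2 fold change of -0.16 ± 0.07 (unadjusted p = 0.0407 and adjusted p = 0.257 by edgeR), and before it the difference was 0.00 ± 0.08 (adjusted p = 0.977). TCRBV26-01 differed by -0.04 ± 0.10 (adjusted p = 0.791) and 0.12 ± 0.09 (adjusted p = 0.484). The change around EG7.OVA differed between cured and naive mice by -0.17 ± 0.11 for TCRBV16-01 (adjusted p = 0.439) and -0.15 ± 0.13 for TCRBV26-01 (adjusted p = 0.599).

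Few segments of any kind were called in the rechallenge. EdgeR called 3 of 22 (13.6%) in naive mice and 2 of 24 (8.33%) between the challenges in cured mice, and neither segment was among them. It called 0 of 24 (0%) around EG7.OVA and 0 of 24 (0%) around EL4 in cured mice, with 3 and 1 at an unadjusted p under 0.05, and 0 of 23 (0%) in each of the comparisons of cured with naive mice before EG7.OVA, after it, and of their changes, with 4, 4 and 4. DESeq2 called 0 in each of these 5 comparisons and 0 in naive mice.

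The TCRBV16-01 clone with the highest share in any rechallenge library was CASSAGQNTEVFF in cured mouse 1, joined to TCRBJ01-01 and described after its values were seen.

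Cured mouse 1, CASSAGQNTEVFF: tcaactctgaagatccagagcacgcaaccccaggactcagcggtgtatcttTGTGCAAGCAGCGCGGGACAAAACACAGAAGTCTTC

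It had 4 templates (0.0527%, Wilson interval 0.0205% to 0.135%) on day 65, 7 (0.124%, 0.0602% to 0.256%) on day 73, 8 (0.102%, 0.0517% to 0.201%) on day 126 and 57 (0.611%, 0.472% to 0.790%) on day 136, after EL4. The clone was chosen by its day 136 share in 1 mouse, and the intervals cover counting error only, so these values are a description. It was also found with 1 template in cured mouse 2. The rearrangement with the highest share of TCRBV26-01 in the rechallenge (0.123%, on day 73), with a CDR3 of 15 amino acids in cured mouse 6, had 6, 10, 2 and 0 templates at the same samplings.

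Selection of the receptor protein was read from in-frame against out-of-frame rearrangements. An out-of-frame rearrangement makes no receptor and is carried along by the cell's other allele, so its V use reflects recombination alone, while in-frame use has also passed thymic selection and the periphery. Over 27 mice, with each rearrangement counted once per mouse, TCRBV16-01 made up 5.51% ± 0.338 of in-frame and 5.12% ± 0.333 of out-of-frame rearrangements, higher in frame in 23 of 27 mice. TCRBV26-01 made up 3.24% ± 0.240 of in-frame and 2.82% ± 0.259 of out-of-frame rearrangements, higher in frame in 26 of 27 mice. Both were past the threshold, with log2 ratios of 0.12 ± 0.02 (adjusted p = 1.36e-07) and 0.21 ± 0.03 (adjusted p = 1.88e-11) by edgeR. The sign-flip permutation test gave adjusted p of 8.0e-05 and 2.8e-05.

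A call was the rule among V segments here, with 21 of 24 called (87.5%), 13 higher and 8 lower in frame. The log2 ratios ran from -2.27 to 0.44 with a median of 0.10, and TCRBV16-01 and TCRBV26-01 ranked 11 and 7 from the top. TCRBV16-01 thus lay near the median of all segments and TCRBV26-01 above it, a description with no test between segments. Of the related superantigen-reactive segments, the Vβ5 segment TCRBV12-01 (-0.35) and the Vβ12 segment TCRBV15-01 (-0.53), whose families need I-E for deletion as Vβ11 does, were lower in frame, and the other Vβ5 segment, TCRBV12-02, was higher (0.09). The Vβ8.1, Vβ6 and Vβ7 segments TCRBV13-03, TCRBV19-01 and TCRBV29-01 were higher (0.44, 0.11 and 0.20). OT-1 and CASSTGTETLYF use TCRBV12-01 and TCRBV15-01. Counted by templates, the log2 ratio was 0.045 for TCRBV16-01 (adjusted p = 0.767) and 0.17 for TCRBV26-01 (adjusted p = 0.0415). Large clones were not confined to in-frame rearrangements, since 1 out-of-frame TCRBV16-01 rearrangement with TCRBJ01-06 had 601 templates, or 12.5% of out-of-frame templates, in the tumor of mRBC-CTRL mouse 5.

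**Figure D3:**
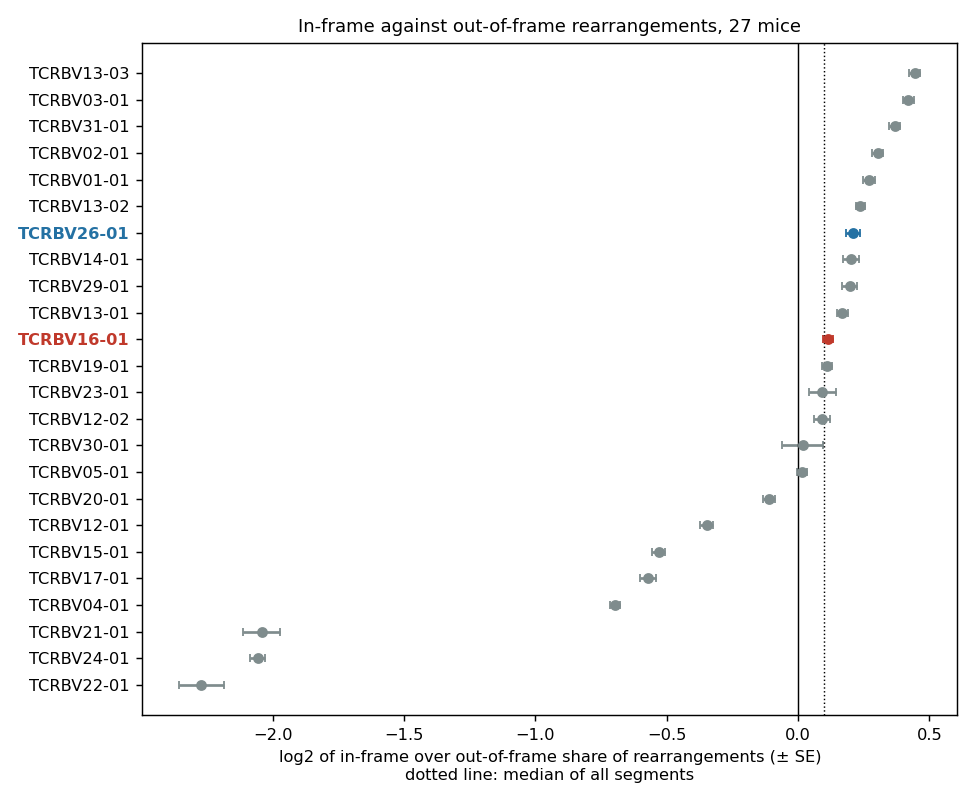
Log2 ratio of in-frame over out-of-frame share of rearrangements (± SE) for 24 V segments over 27 mice, with the solid line at 0 and the dotted line at the median of all segments, 0.10. TCRBV16-01 (red) lies at that median and TCRBV26-01 (blue) above it.

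The 6 superantigen-reactive segments named above were also followed in the V share comparisons. Of the Vβ5 and Vβ12 segments, 1 of 3 was called higher at 1E9 from day 0 to day 7 (TCRBV12-01, log2 fold change 0.50, the segment of OT-1) and 1 of 3 lower (TCRBV15-01, -0.45). Of the Vβ6, Vβ7 and Vβ8.1 segments, 1 of 3 was called higher there (TCRBV29-01, 0.54). Over all segments 8 of 23 (34.8%) were called in that comparison. In the 2.5E8 mice TCRBV15-01 was called lower and TCRBV19-01 higher in tumor than in blood, where 9 of 23 segments (39.1%) were called. In cured mice between the challenges TCRBV15-01 was called lower and TCRBV13-03 higher, of 2 of 24 (8.33%) called. In naive mice TCRBV12-01 and TCRBV29-01 were called higher after EG7.OVA, where 3 of 22 (13.6%) were called. No segment of these lists was called in the other comparisons of V shares.

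Like every V segment tested, both differed from the other V segments in the use of some J segments. J segments were read as the percent of a segment's in-frame rearrangements, counted once per mouse, against those of all other V segments in the same mouse, with a sign-flip permutation test over 27 mice and adjustment over all V and J pairs. Of 308 pairs, 170 (55.2%) were called, so departures were common. For TCRBV16-01 8 of 14 J segments were called and for TCRBV26-01 9 of 14, near that share. Over the V segments tested the number called ran from 3 to 11.

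TCRBV16-01 was short of TCRBJ01-06 and TCRBJ01-02. It used TCRBJ01-06 in 1.30% ± 0.475 of rearrangements against 3.21% ± 0.230 for other V segments (lower in 27 of 27 mice) and TCRBJ01-02 in 4.79% ± 0.945 against 6.42% ± 0.230 (higher in 1 of 27), each with adjusted p = 5.7e-05, from the smallest p that the resamples can give. It used TCRBJ01-01 more, in 12.5% ± 1.10 against 10.8% ± 0.636 (higher in 23 of 27, adjusted p = 5.7e-05), and TCRBJ02-07 in 20.6% ± 2.36 against 19.1% ± 0.699 (higher in 16 of 27, adjusted p = 0.00383).

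TCRBV26-01 joined the J1 cluster more often. It used TCRBJ01-03 in 8.44% ± 1.42 of rearrangements against 5.39% ± 0.309 (higher in 27 of 27), TCRBJ01-02 in 8.26% ± 1.42 against 6.26% ± 0.225 (higher in 26 of 27) and TCRBJ01-01 in 13.3% ± 1.97 against 10.8% ± 0.606 (higher in 24 of 27), each with adjusted p = 5.7e-05. TCRBJ01-06 was higher as well, at 3.95% ± 1.16 against 3.08% ± 0.222 (adjusted p = 0.000652), the opposite of TCRBV16-01. It used TCRBJ02-07 less, in 16.8% ± 2.33 against 19.3% ± 0.695 (adjusted p = 9.5e-05), and TCRBJ02-05 and TCRBJ02-03 less by 2.33 and 2.27 percentage points in absolute size (adjusted p = 5.7e-05 each). In all, 55.2% ± 3.10 of TCRBV26-01 rearrangements used a J2 segment, against 66.0% ± 1.86 of TCRBV16-01 and 63.8% ± 0.921 of the V segments other than these. Among those with a named D segment, D2 was named in 24.9% ± 3.24, 45.1% ± 3.53 and 42.3% ± 1.26. These last values are descriptions with no test.

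**Figure D4:**
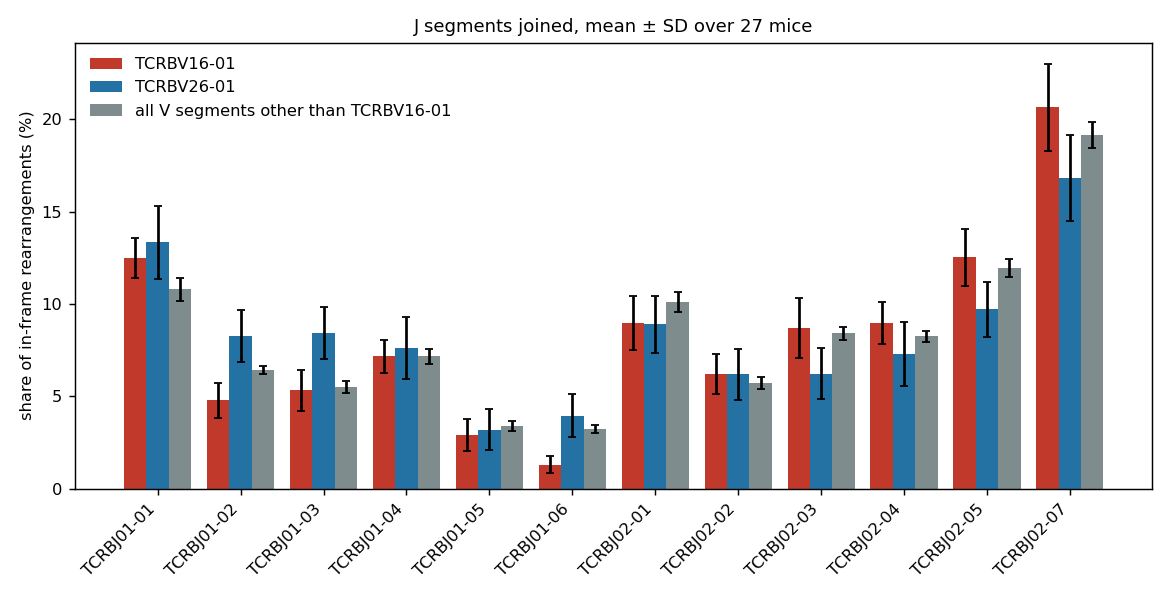
Percent of in-frame rearrangements joined to each J segment, mean ± SD over 27 mice, for TCRBV16-01 (red), TCRBV26-01 (blue) and all V segments other than TCRBV16-01 (gray). TCRBJ01-06 is at 1.30% with TCRBV16-01 and 3.95% with TCRBV26-01, and TCRBJ01-03 at 8.44% with TCRBV26-01.

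CDR3 length differed in opposite directions. TCRBV26-01 had a mean CDR3 of 13.7 ± 0.0669 amino acids against 13.9 ± 0.0314 for other V segments, a difference of -0.176, shorter in 27 of 27 mice (adjusted p = 1.6e-05, from the smallest p of the sign-flip permutation test). TCRBV16-01 was longer by 0.0496 amino acids, in 22 of 27 mice (adjusted p = 0.000452). Of 22 V segments tested 20 (90.9%) were called. CDR3s of 14 amino acids were the most common, at 33.8% ± 3.11 with TCRBV26-01, 30.1% ± 2.16 with TCRBV16-01 and 30.7% ± 0.586 with the other segments. Those of 16 amino acids made up 5.51% ± 1.52, 9.503% ± 1.41 and 8.84% ± 0.451. By templates neither segment passed (differences of -0.0879 and 0.0284 amino acids, adjusted p = 0.0550 and 0.704).

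**Figure D5:**
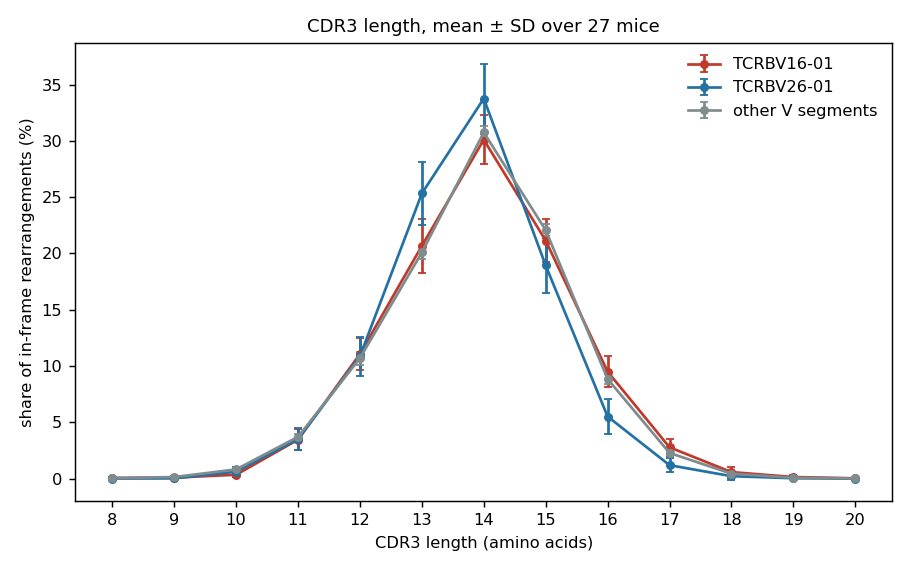
Percent of in-frame rearrangements at each CDR3 length (amino acids), mean ± SD over 27 mice, for TCRBV16-01 (red), TCRBV26-01 (blue) and the other V segments (gray). TCRBV26-01 has more CDR3s of 13 and 14 and fewer of 16 amino acids.

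The joints were described without a test. Inserted bases numbered 3.40 ± 0.132 per rearrangement for TCRBV16-01, 3.19 ± 0.107 for TCRBV26-01 and 3.45 ± 0.0353 for the other segments. Bases deleted from the V end numbered 2.90 ± 0.0875, 3.35 ± 0.135 and 2.58 ± 0.0329, and 18.7% ± 1.66, 10.5% ± 1.59 and 24.0% ± 0.434 had none deleted. The V end of TCRBV26-01 was thus trimmed more than that of TCRBV16-01, and both more than the other segments pooled. TCRBV26-01 also had slightly fewer inserted bases.

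Most CDR3s of both segments were private. Of 16207 TCRBV16-01 CDR3s 88.4% were found in 1 mouse, and of 9970 TCRBV26-01 CDR3s 88.2%. The CDR3 found in most mice was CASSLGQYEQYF for TCRBV16-01, in 13 of 27 mice and 15 libraries with 53 templates and 9 nucleotide forms, joined to TCRBJ02-07. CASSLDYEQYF was also in 13 mice, in 14 libraries. For TCRBV26-01 it was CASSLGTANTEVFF, in 11 mice and 13 libraries with 1 template in each and 2 nucleotide forms, with TCRBJ01-01. The form of each that was in most mice, 4 and 9, had 0 inserted bases. They are shown because their junctions hold only germline bases.

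TCRBV16-01, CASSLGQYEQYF: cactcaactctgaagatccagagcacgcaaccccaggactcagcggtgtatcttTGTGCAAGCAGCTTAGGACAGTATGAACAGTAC

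TCRBV26-01, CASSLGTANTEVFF: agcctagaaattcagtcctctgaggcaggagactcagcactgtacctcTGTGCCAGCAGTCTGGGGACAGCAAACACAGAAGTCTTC

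Over the 81 libraries, the V segments whose share was most like that of TCRBV16-01 were TCRBV15-01, TCRBV23-01 and TCRBV01-01, with Spearman's rho of 0.46, 0.34 and 0.26. For TCRBV26-01 they were TCRBV01-01, TCRBV23-01 and TCRBV03-01, with rho of 0.46, 0.41 and 0.39. Within the 66 blood libraries these were 0.19, 0.23 and 0.10, and 0.23, 0.26 and 0.22. The libraries share mice and the shares of a library sum to a fixed total, so these values are descriptions.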

How the data were processed

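The authors sequenced TCRβ CDR3 regions from genomic DNA of blood and tumors with the immunoSEQ assay, a multiplex PCR whose primer bias is controlled, and deposited the raw template count of every rearrangement. They also deposited each rearrangement's fraction of the library, computed by the authors from these counts, and its CDR3 length, and the fraction was not used. The aligner and reference build are not given in the sources used here. Members, gene lists and tests were chosen with earlier results of these data known. No row with tied V segments named a member, so the alternative of adding such rows changed nothing.

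Shares were computed as described beside them. V segments with at least 10 templates in as many libraries as the smaller group were tested with edgeR 4.0.16 (R 4.3.3; quasi-likelihood, all in-frame templates other than the 2 CDR3s as library size, p-values bounded by the Poisson test), with the mouse as a block within mice and Benjamini-Hochberg adjustment over all segments tested. Each SE beside a log2 fold change is the absolute log2 fold change divided by the square root of edgeR's F statistic. DESeq2 1.42.0 (mean dispersion fit, default size factors) and TMM normalization were alternatives. Both scale libraries by their typical segment rather than by the in-frame total alone, so they do not test the same share. Other alternatives were exact 2-sided permutation tests of percent shares, other counting, filters and denominators, and leaving out each mouse. TMM for the in-frame against out-of-frame comparison was chosen after seeing the data. Sign-flip tests over 27 mice were 2-sided with 100000 resamples, and p-values measure the spread between mice. Intervals are Wilson intervals at 95%. Scripts were tested on simulated data. Other steps ran in Python 3.11.15 (pandas 2.3.3, statsmodels 0.14.6, scipy 1.17.1, numpy 2.4.6).

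Groups came from the labels. A title that names mouse 1 carries the animal code of cured mouse 2, and its library was put there. Named rearrangements were, per segment, the one with the highest share in any tumor and in any blood library, and the CDR3 in most mice (ties by templates). Others, above 5% of a tumor library, largest in the rechallenge or shared as the largest by tumors, were added after their values were seen. Within-mouse samples are true pairs, while mice of different groups are different animals that share only a number. Same-numbered mice deviated together (correlation over 0.1) in every pair for 1 comparison, 1E9 against mRBC-CTRL on day 0, a pairing seen in the data alone, and its block changed no call in that comparison.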

Additional observations from a re-analysis of the deposited data

Results flagged for a closer look

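Each group of 4 to 7 libraries was tested once per segment for a library far from the rest. Of these 30 tests 4 found one, where chance gives about 1 in 20. The TCRBV16-01 share of the tumor of mouse 2 at 2.5E8 (10.2%) lay far above the other 4 tumors of its group, the highest of which was 2.22%. The TCRBV26-01 share of the day 0 blood of mouse 4 at 2.5E8 (2.31%) lay below its group, that of the day 7 blood of mouse 2 at 2.5E8 (3.39%) above its group, and that of the day 7 blood of mRBC-CTRL mouse 5 (3.62%) above its group.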

How the results depend on the processing

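Of 860 alternative values, 801 kept their side of the threshold, with the same direction where a value passed. A change of direction between values that both missed the threshold was counted as kept. Log2 fold changes are given unless stated. For TCRBV16-01 in day 7 blood at 1E9 against mRBC-CTRL the call was lost with TMM (-0.33), with rearrangements in place of templates (-0.11), without rearrangements of 1 template (-0.57), without each segment's largest rearrangement (-0.18) and in the permutation test (-1.59 percentage points). Leaving out each mouse gave -0.50 to -0.38. From day 0 to day 7 at 1E9 it was lost with rearrangements (-0.23), without those of 1 template (-0.54), without the largest (-0.25) and in the permutation test (-1.68 points), with -0.62 to -0.35 over mice left out. In 2.5E8 tumor against blood it was lost with DESeq2 (-0.70), TMM (-0.73) and the permutation test (-2.21 points), with -1.88 to -1.03 over mice left out. The mouse as a block mattered in 2 results of TCRBV16-01. Without the block the 2.5E8 tumor call was lost (-0.74), and the difference in change at 1E9 against mRBC-CTRL passed (-0.57), with -0.73 to -0.46 over mice left out. A block on the replicate number changed no call of TCRBV16-01 or TCRBV26-01 between groups, turned TCRBV16-01 in 1E9 against 2.5E8 tumors to 0.47, and took the segments called in 2.5E8 against mRBC-CTRL tumors from 1 to 0. Same-numbered mice correlated at a median of 0.189 over 42 pairs (-0.562 to 0.666). DESeq2 called TCRBV16-01 lower in 1E9 than mRBC-CTRL tumors (-2.60), and leaving out mice gave -2.82 to -0.68 for 2.5E8 tumors. TCRBV26-01 at 2.5E8 from day 0 to day 7 passed with rearrangements (-0.33), and its 2.5E8 tumor against blood value ran from -1.01 (adjusted p = 0.0464 by edgeR, without mouse 5) to -0.50 over mice left out.

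Keeping OT-1 and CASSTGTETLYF in the denominator lets them dilute every other segment. With them, TCRBV16-01 passed in 1E9 tumor against blood (-1.46), around EG7.OVA in cured mice (-0.48), naive mice (0.22) and their difference (-0.71), between the challenges (0.33), for cured against naive mice after EG7.OVA (-0.54) and for the change at 1E9 (-1.90), and reversed in mRBC-CTRL tumor against blood (-1.49995). TCRBV26-01 passed at 1E9 from day 0 to day 7 (-1.19) and against mRBC-CTRL on day 7 (-1.40), in tumor against blood at 1E9 (-1.41), 2.5E8 (-1.93) and mRBC-CTRL (-3.16), around EG7.OVA in cured mice (-0.49), for its difference from naive mice (-0.69) and for cured against naive mice before EG7.OVA (0.25). It reversed for the change at 1E9 (-1.22) and between the challenges (0.28). Templates in place of rearrangements ended the calls of TCRBV16-01 in frame against out of frame (0.045) and of CDR3 length (0.0284 and, for TCRBV26-01, -0.0879 amino acids), left 4 J segments called for TCRBV16-01 and reversed TCRBJ01-05 (0.494 points) and TCRBJ02-04 (-0.0949 points). Causes were not tested beyond what each alternative leaves out. Depth was lowest in 1E9 day 7 blood and tumors (482 and 832 templates), where 1 clone can move a share.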
